A study of Homo sapiens with 12 samples.

Results

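FRS2 and FGF receptor signalling comprise 10 genes here: the docking proteins FRS2 and FRS3, the receptors FGFR1 to FGFR4, and the signalling proteins GRB2, SOS1, PTPN11 and GAB1. They were taken by gene name from a table of 50868 genes, in which each name has 1 row. All 10 were among the 16554 genes with enough reads to test. FRS2 was chosen by its level in these same libraries, which was already known to lie at 2 values, so its levels are given as a description and without a test. The other 9 were chosen for their place in the pathway, with earlier results of these data known.

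RNA was sequenced from RPMI2650 cells, a wild-type human line from a carcinoma of the nasal septum, cultured with its upper side exposed to air. The 3 groups of 4 libraries each were a control, 1 µM PFBA for 7 days and 1 µM PFHxA for 7 days. PFBA (perfluorobutanoic acid) and PFHxA (perfluorohexanoic acid) are perfluorinated carboxylic acids, and PFHxA has the longer carbon chain. The labels give neither a vehicle nor a duration for the control and do not say that libraries came from separate cultures, so p-values measure only the spread between these libraries, which may be technical. Libraries are named by group and by the letter of their column, a to d. The totals ran from 16941599 to 21879105 counts per library. The epithelial markers KRT8, KRT18, KRT19, EPCAM and CDH1 passed the filter, with a summed level of 792.1 to 892.9 CPM (counts per 1000000 counts) over the 12 libraries. Of the basal markers, KRT5 was at a mean of 1930.0 CPM, but KRT14 was at 0.495 CPM and TP63 at 1.82 CPM. Of the mesenchymal markers, VIM was at 677.0 CPM and COL1A1 at 2.31 CPM, with CDH2 and DCN near 0. The secretory marker SCGB1A1 had 0 counts in every library, and MUC5AC was at 1.2 CPM and MUC5B at 2.0 CPM. The leukocyte markers PTPRC and CD3E were near 0, and CD68 was at 1.7 CPM. The endothelial marker CDH5 was at 8.65 CPM, with PECAM1 at 0.564 CPM and VWF at 0.469 CPM.

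Fibroblast growth factors bind receptor tyrosine kinases on the cell surface together with heparan sulfate. FRS2 is anchored at the membrane by a lipid tail, binds the receptor through its phosphotyrosine-binding domain, and is phosphorylated by it. The phosphorylated FRS2 then recruits GRB2, which brings the RAS exchange factor SOS1 and, through GAB1, PI3 kinase, and it recruits the phosphatase SHP2, encoded by PTPN11. FRS3 is the close relative of FRS2, and the route leads to RAS and ERK. In bulk RNA, fewer cells that express a gene and less of its RNA per cell cannot be told apart.

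Of the 10 genes, FRS2 and GRB2 were the ones whose 12 library values fell into separate levels, and the bases before their starts are shown for that reason. The RefSeq promoter table for GRCh38.p14 held 7 of the 10 genes and lacked FGFR1, PTPN11 and GAB1. The 250 bases before the start in that table are chr12:69470138-69470387 on the plus strand for FRS2 and chr17:75405679-75405928 on the minus strand for GRB2. The gene positions given below begin inside these windows, at 69470349 for FRS2 and 75405709 for GRB2, so the windows reach into the genes so placed. Capitals mark GGGCGG, the core of a GC box, or the same letters on the other strand, with matches that share letters run together.

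FRS2: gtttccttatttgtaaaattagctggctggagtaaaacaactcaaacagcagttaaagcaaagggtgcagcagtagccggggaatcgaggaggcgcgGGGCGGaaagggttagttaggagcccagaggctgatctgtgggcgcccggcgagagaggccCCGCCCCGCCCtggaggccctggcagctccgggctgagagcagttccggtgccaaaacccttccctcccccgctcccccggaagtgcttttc
GRB2: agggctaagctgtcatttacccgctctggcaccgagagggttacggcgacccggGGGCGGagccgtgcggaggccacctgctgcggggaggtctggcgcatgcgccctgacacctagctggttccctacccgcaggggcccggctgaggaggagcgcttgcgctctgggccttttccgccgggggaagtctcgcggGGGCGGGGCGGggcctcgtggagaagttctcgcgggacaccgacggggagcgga

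Both windows held 3 matches to GGGCGG when overlapping matches on both strands were counted. A match occurs in 42.6% of 35116 windows of that length. Neither window held TATAAA, found in 10.7% of windows, or CCAAT, found in 32.0%. FRS2 had 14 CpG and a GC content of 60.8%, and GRB2 had 27 CpG and 71.6%, where the median over all windows was 11 CpG and 58%. These are letter matches in a window, and no binding was measured here.

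The FRS2 gene (ENSG00000166225) lies at chr12:69470349-69579789 on the plus strand of GRCh38. Its level in the control libraries a to d was 58.3, 56.6, 56.0 and 55.6 CPM. In the PFBA libraries a, b and c it was 56.7, 55.5 and 57.1 CPM, and in PFBA d it was 22.6 CPM. The 4 PFHxA libraries stood at 20.4, 18.9, 20.7 and 19.2 CPM. All of the PFHxA libraries were thus low, and PFBA d stood with them rather than with its own group. Nothing lay between: 5 libraries were at or below 22.6 CPM, 7 were at or above 55.5 CPM, and neighbours in the sorted order were otherwise at most 1.09-fold apart, against 2.44-fold at the gap.

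**Figure D1:**
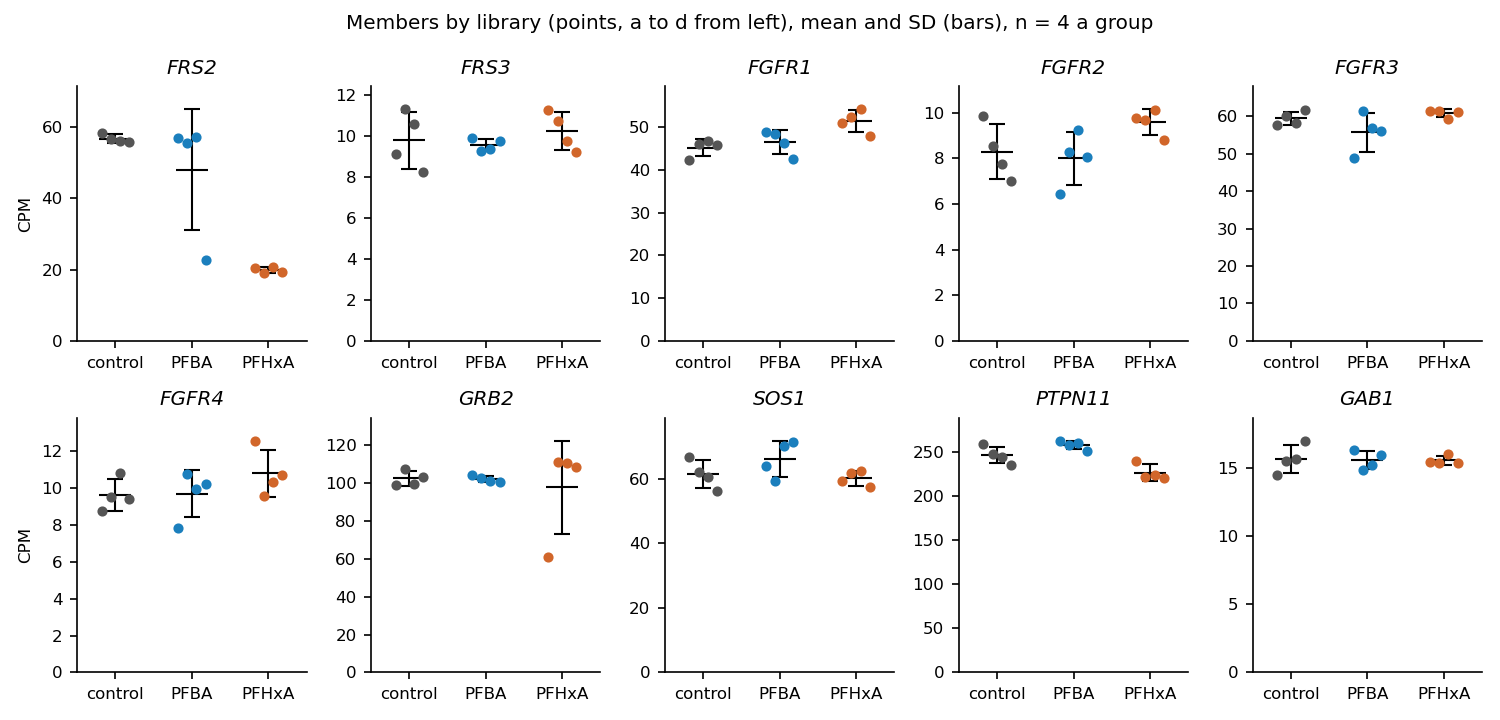
Level of each of the 10 genes in CPM (vertical axis, from 0) in the control, PFBA and PFHxA libraries; points are single libraries, a to d from left, and bars are the mean and SD of 4. FRS2 sits at 18.9 to 20.7 CPM in PFHxA and at 22.6 CPM in PFBA d, against 55.5 CPM or more elsewhere, and GRB2 at 60.7 CPM in PFHxA a.

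Behind those levels were 952 to 1250 reads in the control libraries, 459 reads in PFBA d and 358 to 389 reads in the PFHxA libraries. The group means were 56.6 ± 1.20 CPM in control, 48.0 ± 16.9 CPM in PFBA and 19.8 ± 0.857 CPM in PFHxA (SD, n = 4 each). The SD of the PFBA group comes from its 1 low library. The fitted log2 fold of FRS2 was -1.52 (SE 0.243) for PFHxA against control, -1.28 (SE 0.243) for PFHxA against PFBA and -0.24 (SE 0.233) for PFBA against control. Without PFBA d, the log2 fold of PFBA against control was -0.0048 and that of PFHxA against PFBA was -1.51.

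The resemblance of PFBA d to PFHxA was also counted over other genes. Over the 2466 genes that differed between PFHxA and control, PFBA d was nearer to the PFHxA mean than to the control mean in 324, or 13.1%. The share was 22.5% for PFBA a, 34.4% for PFBA b and 20.0% for PFBA c, so PFBA d had the lowest of the 4. FRS2 was thus 1 of a minority of these genes in which PFBA d lay on the PFHxA side.

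The table gives 1 count per gene. GENCODE 29 lists 11 transcripts of FRS2, which end between positions 69569061 and 69579789 of chromosome 12. Which exons or transcripts lost reads cannot be told from a single count, and neither can a step in RNA level be told apart from a step in how reads were assigned to the gene. Among the rows of the table, 0 overlapped FRS2 on either strand.

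The genes around FRS2 did not share its 2 levels. Within 1 Mb on either side lay 48 rows, of which 14 were tested and 10 of these were protein-coding. NUP107, a nuclear pore subunit, was lower in PFHxA than in control (log2 fold -0.26, SE 0.0516, adjusted p = 0.00554). CCT2, a chaperonin subunit that begins 5.545 kb past the end of FRS2, was also lower (log2 fold -0.27, SE 0.0637, adjusted p = 0.0142), at 227.0 ± 12.6 against 273.2 ± 28.8 CPM (SD, n = 4). In PFBA d, where FRS2 was low, CCT2 stood at 259.5 CPM, against 250.6 to 257.1 CPM in the other PFBA libraries. The change of FRS2 was therefore several times that of its nearest tested coding neighbour, and its low PFBA library was not low there. NUP107, by contrast, had its lowest control or PFBA value in PFBA d, at 49.4 CPM. Its other PFBA libraries stood at 50.6 to 52.4 CPM and its PFHxA libraries at 43.0 to 47.7 CPM. With the trend over GC content and length removed, both neighbours lost their calls, with adjusted p of 0.0903 for NUP107 and 0.075 for CCT2. YEATS4, which ends 79.55 kb before FRS2 and reads acetylated histones, had an adjusted p of 0.0551 for PFHxA against control. The cleavage factor CPSF6, the GTPase RAP1B, the exchange factor RAB3IP, the deadenylation scaffold CNOT2, the transporter SLC35E3 and the channel subunit KCNMB4 did not pass the test, with adjusted p from 0.0619 to 0.95. MDM2, the ubiquitin ligase of p53, stood at 153.8 CPM in PFHxA d and at 47.8 to 65.1 CPM in the other PFHxA libraries. FRS2 was at its usual PFHxA level in PFHxA d, so the libraries in which these 2 genes stood apart were not the same.

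**Figure D2:**
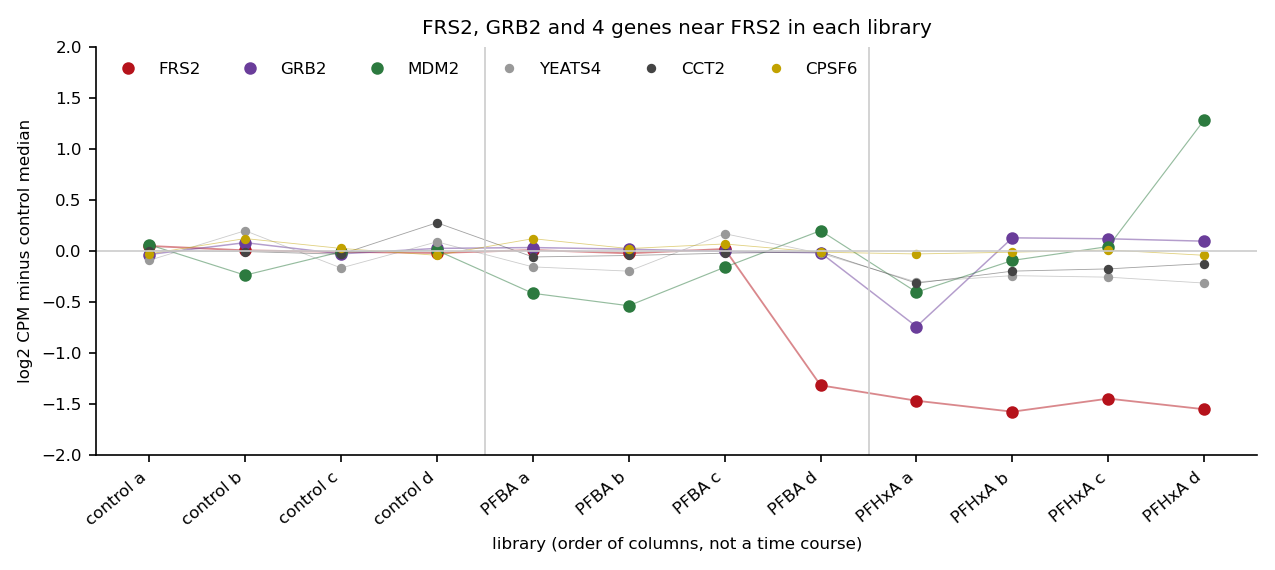
Log2 CPM minus the control median (vertical axis) in each of the 12 libraries (horizontal axis, in column order) for FRS2, GRB2 and the FRS2 neighbours MDM2, YEATS4, CCT2 and CPSF6; thin lines only join points of a gene. FRS2 drops in PFBA d and all PFHxA libraries, GRB2 in PFHxA a, and MDM2 is high in PFHxA d, at 153.8 CPM.

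The genes most like FRS2 had far smaller changes. The 5 genes with the highest Pearson r with FRS2 over the 12 libraries, on log2 CPM, were SEPTIN2 (r = 0.937), SGMS2 (0.936), RWDD1 (0.924), SRPK1 (0.920) and SLCO1A2 (0.919). The lowest r values belonged to MTMR12 (-0.955), AKNA (-0.928) and NID2 (-0.913). The 12 points share their libraries and fall into 2 clusters, so these r values describe the sample and carry no p. Their spans were narrow next to that of FRS2. SEPTIN2, a filament-forming GTPase, ran from 205.4 to 218.2 CPM in control and PFBA and from 189.1 to 196.7 CPM in PFHxA. SLCO1A2, an organic anion transporter, ran from 22.2 to 25.2 CPM against 17.9 to 20.0 CPM, and in both genes PFBA d was the lowest of the control and PFBA libraries. MTMR12, a catalytically inactive myotubularin, was the mirror image, with 75.8 CPM in PFBA d and 73.3 to 76.9 CPM in PFHxA against 63.2 to 68.1 CPM in the other libraries. Since the genes were picked by r with FRS2 over these same libraries, where PFBA d lay in them follows largely from that choice. When ranks were used in place of values, 0 of these 8 genes remained among the 8 named.

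Levels in steps were not rare in the table, and whether they lie in the RNA or arise in the making of the counts was not tested. A gene was counted as lying at 2 levels when its largest gap between neighbouring libraries was at least 1.5-fold and at least 3 times the next gap on the log2 scale. This rule was chosen after the data were seen. Of 11539 genes with a mean of at least 5 CPM, 356 did so, which is 3.09%. Among the 10 genes, FRS2 and GRB2 did so, and FRS2 alone did when the gap had to be 2-fold.

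FRS2 differed from the other 355 genes in which libraries it separated. In 170 of the 356 genes a single library stood apart, and each of the 12 libraries was the one apart in 9 to 19 genes. The smaller side held 2 libraries in 59 genes, 3 in 42, 4 in 38, 5 in 28 and 6 in 19. FRS2 was the 1 gene with all control libraries on one side and all PFHxA libraries on the other, and 0 other genes at 2 levels shared its split. In 0 genes did the levels separate 1 whole group from the other 2. Since FRS2 was chosen for this pattern, its place in the count is a description.

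**Figure D3:**
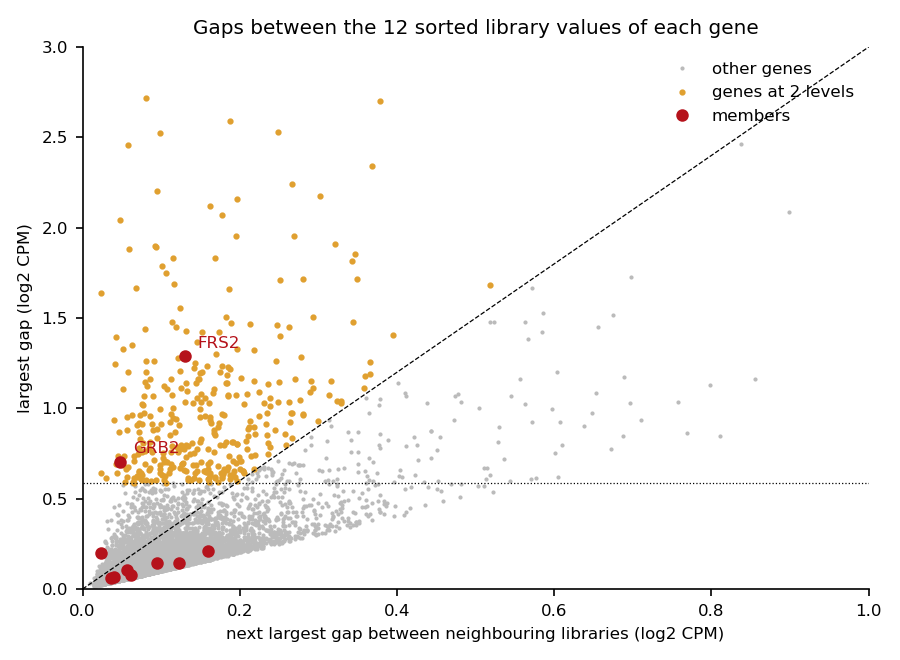
Largest gap (vertical axis) against the next largest gap (horizontal axis) between neighbouring values of the 12 sorted libraries, in log2 CPM, for genes with a mean of at least 5 CPM; 20 genes outside the axes are left out. Orange points are the genes at 2 levels, above the dotted line (1.5-fold) and the dashed line (3 times the next gap), and FRS2 and GRB2 are the red points among them.

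Of the 355 genes at 2 levels other than FRS2, 6 (1.69%) passed the edgeR test for PFHxA against control, beside 14.9% of all tested genes, and 4 (1.13%) for PFHxA against PFBA, beside 10.9%. For PFBA against control 0 passed, where 21 had an unadjusted p under 0.05, DESeq2 called 3 and limma-voom 0. A gene at 2 levels has a large spread within groups unless the split follows the groups, as it nearly does in FRS2.

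GRB2, the adaptor that links phosphorylated FRS2 to SOS1, was the other gene of the 10 at 2 levels (chr17:75318076-75405709, minus strand). Its control libraries stood at 99.1, 107.4, 99.6 and 103.3 CPM and its PFBA libraries at 103.9, 102.8, 101.2 and 100.3 CPM. PFHxA a was at 60.7 CPM, and PFHxA b, c and d were at 111.0, 110.3 and 108.5 CPM. One PFHxA library was thus 1.63-fold below the next value, and the other three were the highest of all 12. The fitted log2 fold for PFHxA against control was -0.07 (SE 0.155, adjusted p = 0.831) with PFHxA a and 0.10 (adjusted p = 0.113) without it. Neither value passed the test. FRS2 in PFHxA a was 20.4 CPM, no different from the rest of its group.

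Across all tested genes, 14.9% differed between PFHxA and control (6.08% higher and 8.82% lower), 10.9% between PFHxA and PFBA (3.84% higher and 7.07% lower) and 0.00604% between PFBA and control. That last share is 1 gene by edgeR, with 1632 genes at an unadjusted p under 0.05, while DESeq2 called 32 genes and limma-voom 0. Of the 9 genes other than FRS2, 0 passed for PFBA against control by edgeR, 0 had an unadjusted p under 0.05, and DESeq2 and limma-voom called 0. FGFR1 passed for PFHxA against control and PTPN11 for PFHxA against PFBA, 1 of 9 in each case. Those shares are near the background. The median log2 fold of the 9 was 0.03 for PFHxA against control, with -0.0039 over all genes, and 0.10 for PFHxA against PFBA, with 0.0055 over all genes.

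**Figure D4:**
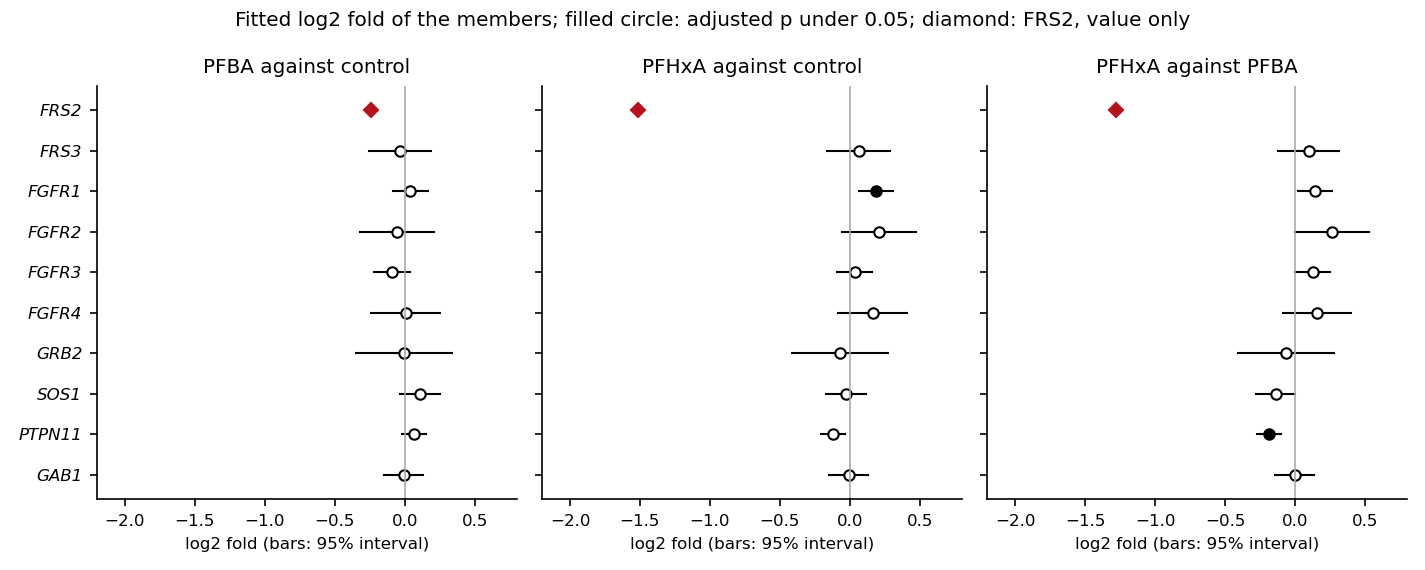
Fitted log2 fold (horizontal axis) of the 10 genes in the 3 comparisons, with 95% intervals as bars; filled circles have an adjusted p under 0.05, and FRS2 (diamond) is shown without an interval because it was chosen for its levels. FRS2 lies at -1.52 and -1.28 in the comparisons with PFHxA, and the other 9 genes lie between -0.19 and 0.26.

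PTPN11 encodes SHP2, the phosphatase that binds FRS2 and is needed for full activation of RAS. Its control libraries stood at 258.5, 248.1, 244.5 and 235.3 CPM, its PFBA libraries at 262.2, 258.4, 260.4 and 251.3 CPM, and its PFHxA libraries at 240.2, 221.5, 224.5 and 220.5 CPM. The PFHxA libraries all lay below the PFBA libraries and overlapped the control range in PFHxA a. PTPN11 was lower in PFHxA than in PFBA (log2 fold -0.19, SE 0.0402, adjusted p = 0.0108). Against control its log2 fold was -0.12 (SE 0.0402, adjusted p = 0.0592), and that call was made by DESeq2, with a stricter filter and with PFHxA a or control d left out. PTPN11 overlaps the ribosomal protein gene RPL6, which had up to 15909 reads in a library, and since the strand setting of the counting is not given, reads of the pair cannot be told apart with certainty.

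SOS1, the exchange factor that loads RAS with GTP, ranged from 56.3 to 66.6 CPM in control, from 59.4 to 71.3 CPM in PFBA and from 57.4 to 62.4 CPM in PFHxA. The groups overlapped, and adjusted p was 0.198 or more. GAB1, the docking protein that carries PI3 kinase and SHP2, was level across the groups, at 15.7 ± 1.02, 15.6 ± 0.675 and 15.5 ± 0.325 CPM in control, PFBA and PFHxA (SD, n = 4). The 95% interval of its log2 fold for PFHxA against control ran from -0.15 to 0.13. FRS3, whose product can occupy the same receptor site as FRS2, stood at 9.80 ± 1.39, 9.57 ± 0.301 and 10.2 ± 0.925 CPM. Its log2 fold for PFHxA against control was 0.06 (SE 0.103, adjusted p = 0.756), with a 95% interval of -0.16 to 0.28. No rise or fall of FRS3 was detected where FRS2 was low, and FRS3 overlaps PRICKLE4, so its low counts are uncertain.

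Among the receptors, FGFR1 was the 1 that passed a test. Its control libraries stood at 42.4, 46.0, 46.7 and 45.8 CPM, its PFBA libraries at 49.0, 48.3, 46.2 and 42.5 CPM and its PFHxA libraries at 50.9, 52.5, 54.2 and 48.0 CPM. The PFHxA libraries lay above all control libraries and overlapped the PFBA range in PFHxA d. The log2 fold for PFHxA against control was 0.18 (SE 0.057, adjusted p = 0.0452). The call was lost in 10 of the 12 fits that left out 1 library, with adjusted p from 0.0319 to 0.118 over all 12.

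FGFR3, the receptor with the highest level per kilobase, ranged from 57.8 to 61.7 CPM in control, 48.8 to 61.3 CPM in PFBA and 59.2 to 61.5 CPM in PFHxA. FGFR2 had group means of 8.28 ± 1.21, 7.99 ± 1.17 and 9.59 ± 0.559 CPM, and FGFR4 of 9.63 ± 0.867, 9.69 ± 1.27 and 10.8 ± 1.27 CPM (SD, n = 4, in control, PFBA and PFHxA). None of these 3 receptors passed a test, and their smallest adjusted p was 0.189, for FGFR2 in PFHxA against PFBA. The 95% interval of that difference ran from 0.00044 to 0.53 on the log2 scale, and that of FGFR4 from -0.09 to 0.40. The lower end for FGFR2 is approximate: its unadjusted p in the edgeR test was 0.0503, so 0 is not excluded. Differences between the 2 acids of up to the upper ends of these intervals are not excluded for the low receptors. FGFR3 was bounded more closely, from -0.0024 to 0.25.

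Levels can be compared between genes only per length. In control, per kilobase of the longest transcript, PTPN11 was highest at 40.4 CPM, followed by GRB2 at 27.5, FGFR3 at 13.4 and FRS2 at 8.58 CPM. FGFR1 at 7.28 and SOS1 at 7.21 CPM per kilobase overlapped, FRS3 was at 4.51 and FGFR4 at 3.09, and GAB1 at 1.96 and FGFR2 at 1.90 overlapped. At its low level in PFHxA, FRS2 had 3.00 CPM per kilobase, which is below the control level of FRS3.

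GC content moved with the calls. The median GC content was 55.6% among the 1006 genes higher in PFHxA than in control, 39.5% among the 1460 lower ones and 48.5% over all tested genes. FRS2 has 36.9%, PTPN11 42.2% and FGFR1 51.3%. After each library was freed of its trend over GC content and length, the log2 fold of FRS2 was -1.36 for PFHxA against control. The same step gave PTPN11 -0.09 for PFHxA against PFBA (adjusted p = 0.242) and FGFR1 0.07 for PFHxA against control (adjusted p = 0.596), so both calls ended. For FRS2 it gave -1.075 for PFHxA against PFBA and -0.28 for PFBA against control. Whether GC content or length bears on the levels of FRS2 was not tested.

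The rest of the pathway was read from 7 lists of 107 genes, 87 of them tested. For PFBA against control 0 of the 87 passed in edgeR, 14 had an unadjusted p under 0.05, and DESeq2 and limma-voom called 0. For PFHxA against control 17 of the 87 passed (19.5%), beside 14.9% of all tested genes. Each list median of the log2 fold below stands beside -0.0039 over all genes. List counts of genes higher or lower in PFHxA than in control stand beside 6.08% and 8.82% of all tested genes. Against PFBA, the shares over all tested genes were 3.84% higher and 7.07% lower. In the list of FGF ligands, which also holds intracellular family members such as FGF12, 1 of 8 tested genes fell in PFHxA against control. The list median log2 fold was 0.09. That gene was FGF2, a ligand of several FGF receptors and the ligand with the most reads here. FGF2 stood at 58.5, 63.1, 61.0 and 60.0 CPM in control, 65.1, 60.7, 62.2 and 64.1 CPM in PFBA and 52.4, 52.7, 51.1 and 53.2 CPM in PFHxA. The 4 PFHxA libraries lay below all others, in log2 fold -0.21 against control (SE 0.0406, adjusted p = 0.0049) and -0.27 against PFBA (SE 0.0405, adjusted p = 0.00214). FGF2 overlaps the antisense gene NUDT6, and without a known strand setting part of its reads may belong there. FGF12, an intracellular member of the family, was near 1 to 2 CPM and did not pass (adjusted p = 0.37).

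Of 17 tested co-receptors and binding proteins, 0 passed for PFHxA against control in edgeR (list median 0.12), with 3 at an unadjusted p under 0.05, 2 called by DESeq2 and 0 by limma-voom. FGFRL1, the receptor-like protein without a kinase, had log2 fold 0.33 (adjusted p = 0.0577), and the heparan sulfate proteoglycan GPC1 had 0.16 (adjusted p = 0.0607). The syndecan SDC3 was higher in PFHxA than in PFBA, at 44.9 ± 0.240 against 39.7 ± 1.17 CPM (SD, n = 4, adjusted p = 0.0196). That call was lost in 2 of the 12 fits with 1 library left out, those without PFBA a or PFBA c.

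The list median was 0.04 in the cascade from RAS to ERK. There, 3 of 18 genes (16.7%) were higher in PFHxA than in control and 0 were lower. Among them were the kinase ARAF (log2 fold 0.18, adjusted p = 0.0278) and the ribosomal S6 kinase RPS6KA1, at 99.2 ± 9.15 against 81.5 ± 2.54 CPM (adjusted p = 0.0202). Single libraries decided these calls: ARAF lost its call in 4 and RPS6KA1 in 3 of the 12 fits with 1 library left out. Against PFBA, RPS6KA1 and the adaptor SHC1 were higher and RASA1, which switches RAS off, was lower (log2 fold -0.22, adjusted p = 0.0229). These calls were lost in 4 of the 12 fits for RPS6KA1, 8 for SHC1 and 5 for RASA1, the fits without PFBA d or PFHxA b among them for each gene.

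In the branch through PI3 kinase and phospholipase C gamma, 3 of 14 genes rose and 2 fell in PFHxA against control (list median 0.13). That is 35.7% called, beside 14.9% of all tested genes. The docking protein GAB2, a relative of GAB1, rose from 82.6 ± 3.11 to 94.8 ± 1.43 CPM (adjusted p = 0.00457), with PFBA at 91.1 ± 1.05 CPM between them. PRKCA, a protein kinase C, and the adaptor CRKL also rose, by log2 folds of 0.26 (adjusted p = 0.00904) and 0.18 (adjusted p = 0.0145). PIK3CA, the catalytic subunit of PI3 kinase, fell from 47.8 ± 3.19 to 40.2 ± 2.06 CPM (adjusted p = 0.0097). PIK3CA was also lower in PFHxA than in PFBA, with a log2 fold of -0.35.

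CRK and PDPK1, a kinase upstream of AKT, lay at 2 levels, which is 2 of 61 list genes with enough reads, or 3.28%, near the share over all genes. The adaptor CRK was at 75.5 to 79.3 CPM in control d, PFBA a, PFBA c and PFHxA c and at 131.9 to 142.7 CPM in the other 8 libraries. Every group held CRK libraries of both kinds, unlike FRS2.

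Of 15 genes listed as feedback inhibitors, 2 rose and 1, the lectin LGALS3, fell in PFHxA against control (20.0%, list median 0.10). CBL, a ubiquitin ligase that is recruited by FRS2 through GRB2 and marks receptors for degradation, stood at 198.1, 197.2, 193.7 and 169.7 CPM in control. Its levels were 218.3, 206.5, 219.6 and 205.3 CPM in PFBA and 221.4, 235.0, 229.1 and 234.7 CPM in PFHxA. The 3 groups did not overlap, and the log2 fold for PFHxA against control was 0.28 (SE 0.0504, adjusted p = 0.00376). DUSP4, a phosphatase of ERK, rose from 99.3 ± 4.16 to 109.8 ± 2.38 CPM (adjusted p = 0.0272), losing its call in 4 of the 12 fits with 1 library left out. LGALS3, a galactoside-binding lectin rather than a direct inhibitor of ERK, fell (log2 fold -0.19, adjusted p = 0.0282), with the call lost in 6 of those fits. SPRED3, an inhibitor of RAF activation, was higher in PFHxA than in PFBA (adjusted p = 0.0202), and lost its call in 4 of the 12 fits.

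Of 12 genes that respond to ERK, 5 rose and 0 fell in PFHxA against control, the list median was 0.13, and 6.08% of all tested genes rose. The transcription factor EGR1 rose from 35.8 ± 3.47 to 45.0 ± 1.95 CPM (log2 fold 0.33, adjusted p = 0.00868). The receptor EPHA2 rose from 201.8 ± 7.47 to 232.7 ± 4.10 CPM (adjusted p = 0.00995) and PHLDA1 from 24.5 ± 2.21 to 29.5 ± 0.926 CPM (adjusted p = 0.0125). The cyclin CCND1 and the AP-1 subunit FOSL1 rose by log2 folds of 0.11 (adjusted p = 0.041) and 0.41 (adjusted p = 0.0454). Each of these last 2 calls was lost in 9 of the 12 fits with 1 library left out. In PFBA, EGR1 was at 40.5 ± 2.59 and PHLDA1 at 29.0 ± 0.256 CPM, and neither passed against control. With the GC and length trend removed, 0 of the 12 genes were called.

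**Figure D5:**
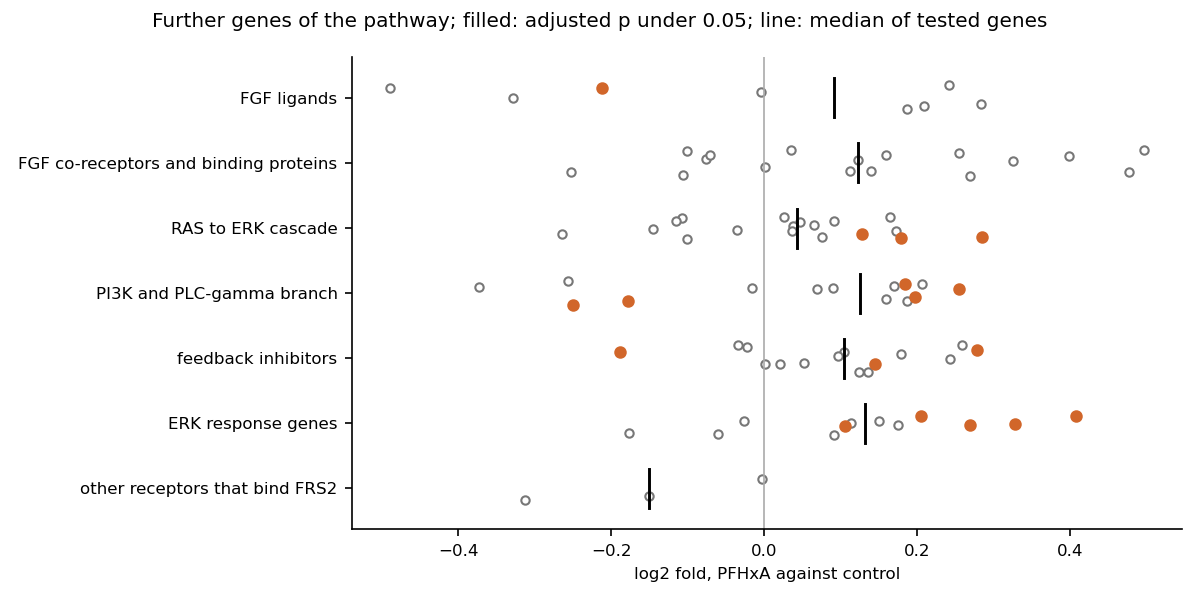
Fitted log2 fold for PFHxA against control (horizontal axis) of the tested genes of each list (rows); filled points have an adjusted p under 0.05 and black lines are the list medians, with vertical scatter only to separate points. The medians of 6 lists lie between 0.04 and 0.13, and that of the 3 tested receptors that also bind FRS2 lies at -0.15.

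Of the other receptors that bind FRS2, 3 of 5 had enough reads, and 0 passed in edgeR, DESeq2 or limma-voom in any comparison, with 1 at an unadjusted p under 0.05 for PFBA against control. The neurotrophin receptor NTRK3 was at 2.47 ± 0.427 CPM in control. Over the lists, removal of the GC and length trend ended all calls for PFHxA against control but that of CBL, and PIK3CB was then called higher (log2 fold 0.21, adjusted p = 0.0316, against 0.09 and 0.255 before). The calls for PFHxA against PFBA of FGF2, SDC3, RPS6KA1, SHC1, RASA1, PIK3CA and SPRED3 also ended, with adjusted p from 0.2 for RASA1 to 0.631 for SHC1. CRKL, FOSL1, PIK3CB, CRK and PDPK1 lie outside the rule by which list genes were named and were chosen after their values were seen.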

How the data were processed

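RNA of RPMI2650 cells was made into 12 libraries with the VAHTS Universal kit and sequenced on an Illumina NovaSeq, per the labels' protocols. The authors deposited raw counts of reads for each gene. A further 12 columns, of FPKM values, were not used. Reads were aligned with HISAT2 2.0.4 to GRCh38 (hg38), per the submitters' processing notes. For the counting program, the annotation and the strand setting, nothing is given in the sources used here. Columns were assigned to groups by their prefix, read as PFBA, PFHxA and control, and column letters could not be matched to label numbers.

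Counts were tested with edgeR 4.0.16 (R 4.3.3): filterByExpr (minimum count 10, minimum total 15), TMM scaling, 1 quasi-likelihood fit of all 12 libraries, two-sided tests, Benjamini-Hochberg adjustment over 16554 genes and a threshold of 0.05. CPM use TMM-scaled totals, and log2 CPM a prior count of 2. The biological coefficient of variation was 0.127. DESeq2 1.42.0, limma-voom (limma 3.58.1), other scalings and filters, the 8 libraries compared alone, removal of a GC and length trend (natural splines with 5 degrees of freedom, GENCODE 29) and each library left out were alternatives. The scripts were tested on simulated data. Counts carry sampling error that is small for well-covered genes and larger for the low ligands.

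The 10 genes and the lists were chosen with earlier results of these data known. From each list the 2 genes with the smallest p for PFHxA against control and those with an adjusted p under 0.05 were named, up to 4. The 5 genes most like and 3 least like FRS2, with a mean of at least 1 CPM, and tested coding genes within 1 Mb were also named. Single genes of the lists that enter the counts are not reported here.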

Additional observations from a re-analysis of the deposited data

Results flagged for a closer look

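The 43 named genes of the pathway and of the FRS2 neighbourhood were checked, in each group of 4 libraries, for a library that stood far from the other three relative to the range of the group (Dixon's 95% criterion). FRS2, the genes chosen by their likeness to it, CRK and PDPK1 were left out, since their levels over the libraries led to their choice. Of 129 groups 9 met this, or 6.98%, where chance gives about 1 in 20. GRB2 in PFHxA a was 60.7 CPM, against 108.5 to 111.0 CPM. FGFR3 in PFHxA c was 59.2 CPM, against 61.1 to 61.5 CPM, and GAB1 in PFHxA c was 16.0 CPM, against 15.4 CPM in each of the others, both small distances in groups of narrow range. MDM2 in PFHxA d was 153.8 CPM, against 47.8 to 65.1 CPM. CCT2 in control d was 316.2 CPM, against 255.3 to 261.5 CPM. CBL in control d was 169.7 CPM, against 193.7 to 198.1 CPM. DUSP4 in PFBA a was 100.9 CPM, against 105.5 to 106.1 CPM. PIK3CA in control c was 43.0 CPM, against 49.3 to 49.4 CPM. CRKL in PFHxA a was 155.9 CPM, against 166.3 to 167.1 CPM.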

How the results depend on the processing

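The log2 fold of FRS2 with 1 library left out ran from -1.53 to -1.49 for PFHxA against control. It ran from -1.51 to -1.18 for PFHxA against PFBA, with -1.51 without PFBA d. For PFBA against control it ran from -0.33 to -0.0048, with -0.0048 without PFBA d. With the GC and length trend removed it was -1.36 for PFHxA against control, -1.075 for PFHxA against PFBA and -0.28 for PFBA against control. No paired analysis was possible because the columns carry letters that could not be matched to label numbers. The alternatives on deposited FPKM values were not run. For PFBA against control, 1 gene was called, 2 without a filter, 2 with the 8 libraries alone, 32 by DESeq2, 0 by limma-voom, 0 to 4 with 1 library left out (4 without PFBA d) and 7 without PFBA d and PFHxA a. For PFHxA against control, 2466 genes were called, 433 with the trend removed and 1523 to 2396 with 1 library left out (fewest without PFHxA b). For PFHxA against PFBA, 1806 were called, 146 with the trend removed, 1035 to 2187 with 1 library left out (fewest without PFHxA b) and 1153 without PFBA d and PFHxA a. Of the 9 genes other than FRS2, 1 was called for PFHxA against control, 0 without a filter, with the 8 libraries alone or with the trend removed, 2 with the stricter filter, by DESeq2 or without PFBA d and PFHxA a, and 0 to 1 with 1 library left out; for PFHxA against PFBA it was 1, and 0 with the trend removed. Of the 8 genes most or least like FRS2, 0 were shared when Spearman's rho was used. Genes at 2 levels numbered 356, 147 with a gap of 2-fold and 237 with a gap of 5 times the next. The cause of these changes was not tested. Dropping PFBA d and PFHxA a together, and the trend removal for FRS2, were chosen after the data were seen. No named gene changed direction with a call. The low ligands and receptors are limited by depth.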
